A study of Mus musculus with 4 samples.

Results

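The serpin genes of the mouse were followed in 2 cell lines. The set was every non-control probe on the array whose printed gene name was Serpin followed by a clade letter from a to i and a number. This rule used no measured value and gave 87 of 56605 probes, for 64 of 24813 genes. By clade, 26 genes belonged to A, 27 to B, 3 to E, 2 each to F and I, and 1 each to C, D, G and H.

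Serpins are a superfamily of structurally related proteins, most of which inactivate a protease by offering an exposed loop as bait. The protease cuts the loop, stays bound to it and is dragged across the serpin, which traps both in an inactive complex that clearance receptors remove. Extracellular members of clades A, C, D, E, F, G and I act on coagulation, fibrinolysis, complement and inflammation, members of clade B mostly stay inside the cell, and a few members inhibit no protease and serve as hormone carriers or chaperones. In the mouse, the Serpina1, Serpina3, Serpinb1, Serpinb6 and Serpinb9 genes have multiplied into tandem copies, and plasminogen activators and their inhibitors are known from the remodelling of the seminiferous epithelium.

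RNA came from cultures of the testicular germ cell lines GC-1 (2 arrays) and GC-2 (2 arrays), for which the labels name no treatment, on one-colour Agilent arrays with probes of 60 bases. By their published derivation, SV40 large T antigen was used to transform type B spermatogonia into GC-1. GC-2 goes back to spermatocytes that received large T together with a temperature-sensitive p53. Both are therefore transformed lines, and no untransformed germ cells were compared with them here. The titles give replicate numbers but not whether replicates were separate cultures. P-values therefore measure the spread between these arrays, which may be technical.

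Signals are given as relative signal, the processed intensity divided by the array's 75th percentile. That percentile was 666 and 693 for GC-1 but 416 and 199.9 for GC-2. The share of probes well above background ran from 57.5% on GC-2 replicate 2 to 64.9% on GC-1 replicate 1. The limit of detection was taken as the lowest value of any probe well above background on the array. On the scaled log2 axis it was -6.19 and -5.92 in GC-1 against -5.58 and -4.69 in GC-2, so it lay lower in GC-1. On the slide each line filled a row of its own, and position and line cannot be told apart. Of 8 germ cell markers, Dazl, Mael and Kit were above background on no array, and GC-1 measured 3 of the list and GC-2 measured 2. Summed over the tested germ cell markers, the relative signal was 0.0882 and 0.0971 in GC-1 and 0.623 and 1.04 in GC-2. Of these 3 markers only Gfra1 was higher in GC-2, with 0.538 and 0.985 of the GC-2 sums, and Ddx4 and Zbtb16 did not pass, at -0.10 and 0.19 log2. All 3 tested epithelial markers, the keratins Krt8, Krt18 and Krt19, were lower in GC-2. Their summed relative signal was 350.0 and 461 in GC-1 and 0.832 and 0.821 in GC-2. The other epithelial markers of the list of 5 were not tested. Epcam was above background on 1 GC-1 array only and Cdh1 on 1 GC-2 array only. Of 4 tested Sertoli cell markers, 1 passed as higher (Rhox5, 1.90 log2) and 2 as lower (Wt1 at -6.29 and Fshr, not above background in GC-2). Of 3 Leydig cell markers, 2 passed as higher (Cyp17a1 at 3.40 and Star at 2.75) and 1 as lower (Cyp11a1, not above background in GC-2). The mean GC-1 levels of Fshr and Cyp11a1, -5.51 and -5.97 log2, lay below the mean of the GC-2 limits of detection. Fshr lay just above the limit of GC-2 replicate 1. Neither Fshr nor Cyp11a1 thus gives a direction. Of 4 peritubular myoid markers, 1 was higher (Acta2, 1.80, with 1 of 3 tested probes past the threshold). Of 4 macrophage markers 1 was higher (Csf1r, 3.51, with 1 of 2 tested probes past it) and 1 lower (Cd68, -4.78). Rhox5 and Acta2 read -0.17 and -0.27 when scaled to E1A. Neither of the 2 tested endothelial markers passed. The part of these differences in the serpin values was not tested.

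The share of serpin genes that differed between the lines was near that of all genes, and a few members differed by very large amounts. In bulk RNA such as this, fewer cells expressing a gene and less RNA per cell cannot be told apart. Testing required a probe well above background in both replicates of a line, which 44 of the 64 serpin genes had. With limma, 14 passed the adjusted p threshold of 0.05 with the higher signal in GC-2, 7 with the lower, and 23 did not pass. A gene measured in a single line entered through the line where it was high, as did Serpinb7, Serpinb9f and Serpinb9g among the higher and Serpina3f, Serpina3i and Serpinb5 among the lower. With only probes above background on all 4 arrays, 11 were higher and 5 lower. The 21 calls among 44 genes make 47.7%, against 44.1% of all 17437 genes tested, where 18.3% were higher and 25.7% lower. The median serpin change, GC-2 minus GC-1, was 0.27 on the log2 scale, against -0.13 for all genes tested. With centring on the median the serpin value was -0.04, with quantile normalization 0.10, with normexp 0.77 and with scaling to E1A -1.79, so its sign was not fixed. The arrays of the lines did not overlap for 27 of 44 serpin genes, or 61.4%, against 77.9% of all genes. Where a gene past the threshold is said below not to overlap, this describes the arrays and adds no support to the call. Past the threshold and over 16-fold were 5 of 44 serpin genes, Serpine2, Serpinb1a, Serpinb1c, Serpina3f and Serpina3g, against 5.21% of all genes.

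Both the count and its direction moved with the scaling and with the arrays used. The split of 14 higher and 7 lower became 9 and 8 with quantile normalization, 8 and 8 with centring on the median, 15 and 4 with normexp, and 7 and 34 with scaling to the E1A spike-in probes, which lowered every change by 2.07 log2. Without GC-1 replicate 1 the split was 8 and 3, and without GC-1 replicate 2 it was 9 and 4. The 9 genes Serpine2, Serpinf1, Serpinb1a, Serpinb1c, Serpinb7, Serpinb9e, Serpinb9f, Serpina3f and Serpina3g kept their direction and stayed past the threshold under each alternative that was run on them.

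**Figure D1:**
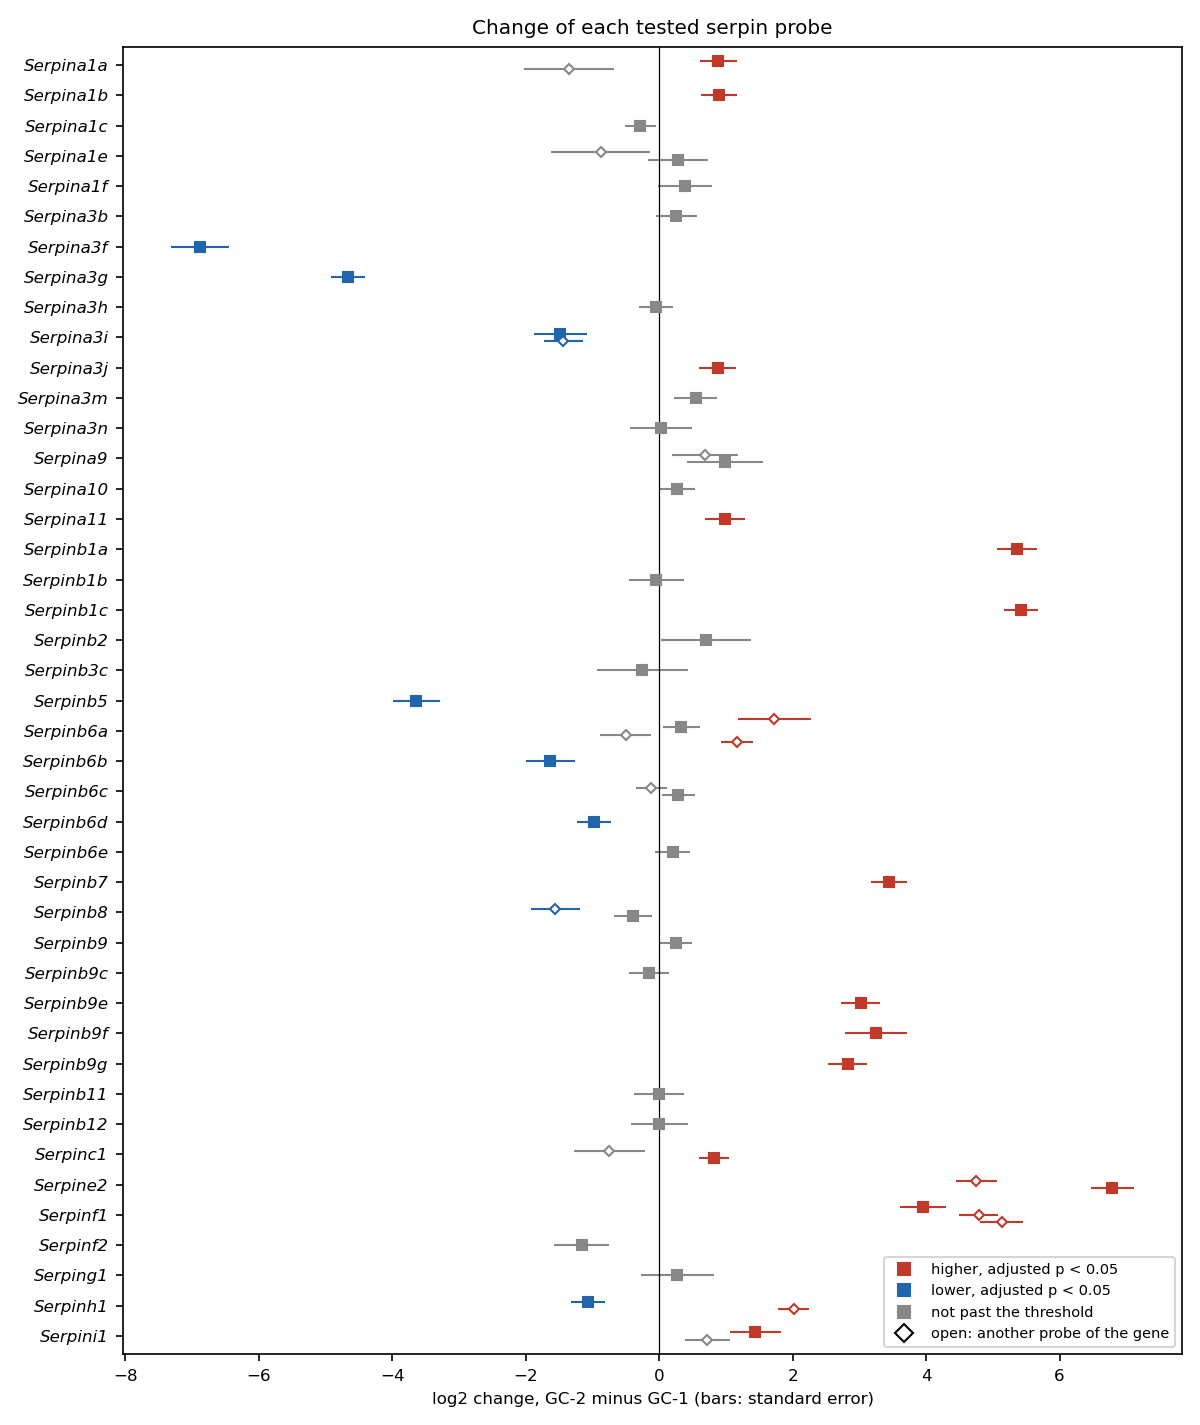
Change of each tested serpin probe, GC-2 minus GC-1, in log2 units (x axis) with its standard error (bars), by gene in the order of the clades. Filled squares are the probe that represents the gene and open diamonds its other tested probes; red is higher and blue lower in GC-2 past the threshold of 0.05 on adjusted p, and grey did not pass. Most genes lie near 0, and the representing probes of Serpine2 at 6.79 and Serpina3f at -6.88 mark the ends.

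The share of serpin genes detected lay below that of all genes in each line. In GC-1, 64.1% of the serpin genes had a probe well above background on both arrays, against 68.5% of all genes, and in GC-2, 56.2% against 62.5%. Both lines measured 33 serpin genes. GC-1 alone measured 8 more, Serpina1c, Serpina3f, Serpina3i, Serpina3n, Serpinb5, Serpinb9c, Serpinb11 and Serpinb12. GC-2 alone measured Serpinb7, Serpinb9f and Serpinb9g.

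Another 17 genes were above background on no array, and 3 were on some arrays without filling a line. The 3 were Serpina16 and Serpinb9d, each on 1 GC-2 array, and Serpini2, on 1 GC-1 array. The 17 included the hormone carriers Serpina6 (corticosteroid-binding globulin) and Serpina7 (thyroxine-binding globulin), the protein C inhibitor Serpina5, known for its role in male fertility, and the heparin cofactor Serpind1. They also held Serpina1d, Serpina3a, Serpina3c, Serpina3k, Serpina12 and the pseudogene Serpina4-ps1 of clade A, Serpinb3a, Serpinb3b, Serpinb3d, Serpinb9b, Serpinb10 and Serpinb13 of clade B, and Serpine3. For these the arrays give a bound only, not a level of 0.

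**Figure D2:**
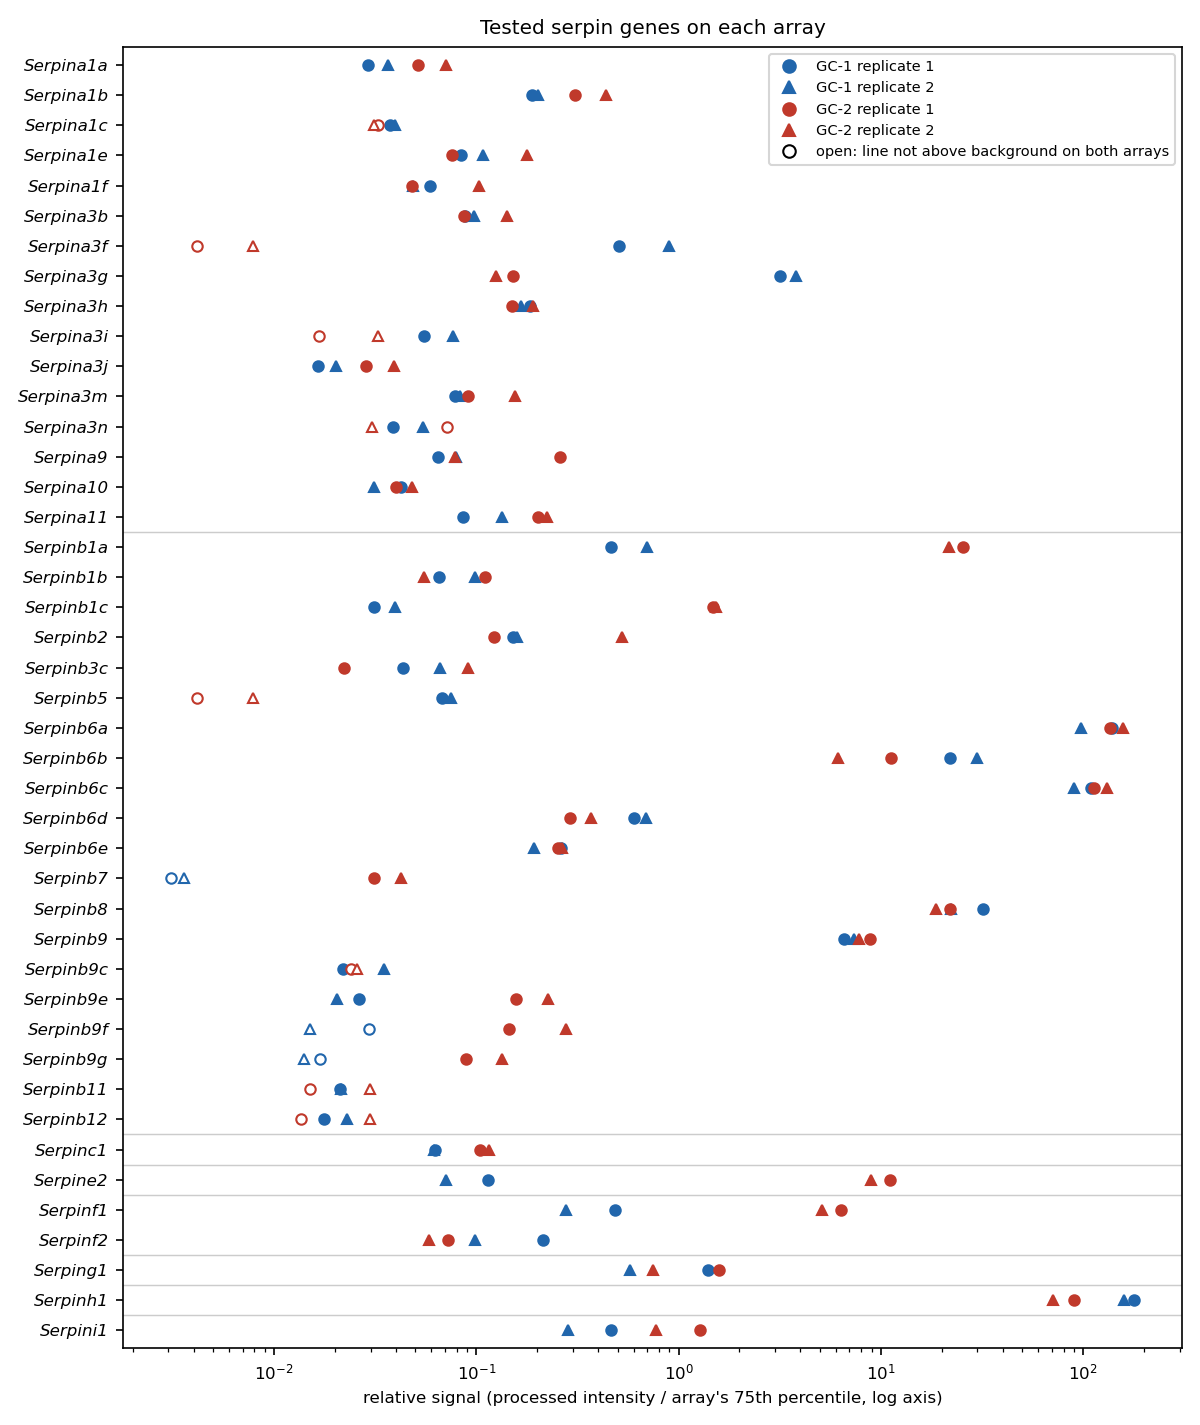
Relative signal of the representing probe of each tested serpin gene on each array, on a log axis; 1 is the array's 75th percentile. Circles and triangles are replicates 1 and 2, blue GC-1 and red GC-2, open where a line was not above background on both arrays, and grey lines divide the clades; levels can be compared along a row, not between genes. Serpine2, Serpinf1, Serpinb1a and Serpinb1c show GC-2 far to the right of GC-1, and Serpina3g the reverse.

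Of the inhibitors of plasminogen activation and thrombin, Serpine2 rose strongly in GC-2. Serpine2, or protease nexin-1, is a cell-surface inhibitor of thrombin, urokinase and plasmin. Its brightest probe (chr1:79790914-79790973, mm9) had a relative signal of 0.115 and 0.0706 in the GC-1 replicates against 11.1 and 8.99 in the GC-2 replicates. Each GC-2 array lay far above each GC-1 array. The change was 6.79 ± 0.32 log2 (SE, n = 2 arrays per line), or 111-fold, with an adjusted p of 0.000189. A second Serpine2 probe, at chr1:79854083-79854142, was above background on no GC-1 array and both GC-2 arrays. This puts GC-2 higher by at least 5.68-fold (adjusted p = 0.000381 for the fitted change). The direction held under each alternative, but the size in the authors' table was 3.31.

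Serpinf2, the inhibitor of plasmin, gave 0.214 and 0.0990 in GC-1 against 0.0726 and 0.0585 in GC-2, so that each GC-2 array lay below each GC-1 array. Its change of -1.16 ± 0.41 log2 did not pass (adjusted p = 0.0687), with GC-1 replicate 1 well above GC-1 replicate 2. Without GC-1 replicate 2 the change was -1.72 (adjusted p = 0.0279) and without GC-1 replicate 1 it was -0.60 (adjusted p = 0.209). With the replicate number as a block it passed at an adjusted p of 0.0252. It also passed with quantile normalization (-1.45, adjusted p = 0.0480), median centring (-1.47, adjusted p = 0.0362), E1A scaling (-3.23) and the filter on all 4 arrays (adjusted p = 0.0471), while with normexp the change was 0.02 (adjusted p = 0.967).

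Serpini1, or neuroserpin, is an inhibitor of tissue plasminogen activator best known from neurons. It rose from 0.464 and 0.285 in GC-1 to 1.27 and 0.770 in GC-2 without overlap, a change of 1.44 ± 0.38 log2 (adjusted p = 0.0273). The second tested probe moved the same way by 0.72 ± 0.34 and did not pass (adjusted p = 0.136). The call was lost without GC-1 replicate 1, GC-1 replicate 2 or GC-2 replicate 1, at adjusted p 0.0513 to 0.127. For Serpini1 the direction was the same over both probes and the call was not.

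Serpinc1, or antithrombin, the heparin-dependent inhibitor of thrombin, gave 0.0626 and 0.0615 in GC-1 against 0.105 and 0.115 in GC-2 and rose by 0.83 ± 0.23 (adjusted p = 0.0323). Its other probe read -0.74 ± 0.53 and did not pass (adjusted p = 0.300). Leaving out any 1 of the 4 arrays ended the Serpinc1 call, with adjusted p 0.0770 to 0.124. The Serpinc1 rise thus rested on a single probe, which lists no transcript of the RefSeq table. The probe that lists a Serpinc1 transcript did not show the rise. With scaling to E1A the changes of Serpini1 and Serpinc1 read -0.62 and -1.24 log2.

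Serping1, the inhibitor of the complement proteases C1r and C1s, had 1.39 and 0.576 in GC-1 against 1.58 and 0.745 in GC-2. Replicates of a line differed more than the lines did, and the change of 0.28 ± 0.55 log2 did not pass (adjusted p = 0.710).

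The non-inhibitory members of clades F and H moved in opposite directions. Serpinf1, or pigment epithelium-derived factor, is a secreted anti-angiogenic protein. Its brightest probe (chr11:75223568-75223627, mm9) gave 0.486 and 0.279 in the GC-1 replicates against 6.36 and 5.12 in the GC-2 replicates, a rise of 3.95 ± 0.34 log2 or 15.5-fold (adjusted p = 0.000878). The other probes read 0.0800 and 0.0490 in the GC-1 replicates against 2.45 and 1.98 in the GC-2 replicates, and 0.0331 and 0.0232 in GC-1 against 0.864 and 0.680 in GC-2. The lines did not overlap on any of the probes. The other probes rose by 5.14 ± 0.32 and 4.79 ± 0.29 (adjusted p = 0.000365 and 0.000333), so 3 of 3 Serpinf1 probes were higher in GC-2.

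Serpinh1, also known as HSP47, is the chaperone of the endoplasmic reticulum that holds folding procollagen. The brightest probe (chr7:106493971-106494030, mm9) gave 178 and 159 in the GC-1 replicates against 90.5 and 71.3 in the GC-2 replicates. The signal fell by 1.07 ± 0.25 log2 in GC-2, or 2.10-fold (adjusted p = 0.0197). The call was lost without GC-1 replicate 1, GC-1 replicate 2 or GC-2 replicate 2, at adjusted p 0.0624 to 0.0896. A second Serpinh1 probe, at chr7:106494061-106494120, gave 0.0280 and 0.0310 in GC-1 against 0.116 and 0.122 in GC-2 and rose by 2.01 ± 0.23 (adjusted p = 0.00197). That probe was designed from a clone sequence and lies on the strand opposite to the RefSeq gene, the only serpin probe of which this was true among 53 genes with a RefSeq strand. In the authors' table, with 1 value per gene name, and with the mean of both probes, the Serpinh1 change was 0.43 and 0.47, neither past the threshold.

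Clade A held the largest falls of the family, all among the tandem Serpina3 copies. These are the mouse counterparts of the antichymotrypsin gene of humans. Serpina3g, an intracellular copy induced in leukocytes that inhibits cysteine cathepsins, had its probe at chr12:105480045-105480104 (mm9) and gave 3.18 and 3.82 in the GC-1 replicates against 0.151 and 0.124 in the GC-2 replicates. The lines did not overlap, and the change was -4.66 ± 0.25 log2, or 25.4-fold lower in GC-2 (adjusted p = 0.000256). The Serpina3g probe lists no transcript of the RefSeq table. Serpina3f gave 0.506 and 0.894 in GC-1 against 0.00418 and 0.00783 in GC-2 at chr12:105492556-105492615, with no GC-2 array above background. GC-1 was higher by at least 23.7-fold (adjusted p = 0.000362 for the fitted change). This was the strongest fitted fall of the family, and the bound is smaller because GC-2 gives a limit only. Its probe also lists a transcript of Serpina3h and lies beside the Serpina3h probe, so these genes cannot be told apart in that value. The second Serpina3f probe was above background on 1 GC-1 array only and was not tested.

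Serpina3i gave 0.0552 and 0.0769 in GC-1 against 0.0167 and 0.0327 in GC-2, above background in GC-1 alone. It was at least 2.30-fold higher there (adjusted p = 0.0294 for the fitted change). For its second probe the bound was at least 1.23-fold in the same direction (adjusted p = 0.0121 for the fitted change). The mean GC-1 level of the second probe, -4.84 log2, lay below the limit of detection of GC-2 replicate 2, at -4.69. The direction of that probe thus rested on GC-2 replicate 1. The Serpina3i call was lost without GC-1 replicate 1, GC-1 replicate 2 or GC-2 replicate 1, at adjusted p 0.0820 to 0.145, and with normexp the fitted change was 0.42 log2. The neighbouring Serpina3h, whose own probe gave 0.184 and 0.166 in GC-1 against 0.150 and 0.191 in GC-2, changed by -0.05 ± 0.25 (adjusted p = 0.897). The Serpina3h probe and the second Serpina3i probe align over 57 bases and match at 51, and a window of 30 bases is shown because it holds the differences that separate them, in capitals.
Serpina3h: cacaggGgtcaaaTtAaTtctaTgttgtgA
Serpina3i: cacaggAgtcaaaGtTaAtctaCgttgtgG
Cross-hybridisation between such copies was not tested.

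The remaining Serpina3 genes showed small differences. Serpina3j rose from 0.0164 and 0.0202 in GC-1 to 0.0286 and 0.0392 in GC-2 (0.88 ± 0.28 log2, adjusted p = 0.0493). Serpina3b gave 0.0882 and 0.0979 in GC-1 against 0.0874 and 0.141 in GC-2 and changed by 0.26 ± 0.31 log2 (adjusted p = 0.529). Serpina3m gave 0.0789 and 0.0830 in GC-1 against 0.0906 and 0.155 in GC-2 and changed by 0.55 ± 0.32 (adjusted p = 0.217). Neither of these passed, and the arrays of Serpina3b overlapped. Serpina3n, an acute-phase copy, gave 0.0387 and 0.0546 in GC-1 against 0.0721 and 0.0304 in GC-2 and changed by 0.03 ± 0.46 (adjusted p = 0.968), with 1 of 2 GC-2 arrays above background.

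The Serpina1 copies, mouse counterparts of the alpha-1-antitrypsin gene that inhibits neutrophil elastase, gave low signals, and 2 of 5 tested rose slightly. Serpina1a rose from 0.0291 and 0.0367 in GC-1 to 0.0516 and 0.0710 in GC-2 (0.89 ± 0.28 log2, adjusted p = 0.0490) and Serpina1b from 0.190 and 0.203 in GC-1 to 0.307 and 0.436 in GC-2 (0.90 ± 0.27, adjusted p = 0.0432). A second Serpina1a probe was above background on no GC-2 array. Its mean GC-1 level lay below the mean of the GC-2 limits of detection, though above that of GC-2 replicate 1, so it gives no direction. Serpina1c gave 0.0375 and 0.0396 in GC-1 against 0.0325 and 0.0311 in GC-2 and changed by -0.28 ± 0.23 (adjusted p = 0.354), with 1 of 2 GC-2 arrays above background. Its probe lists transcripts of Serpina1a, Serpina1b and Serpina1c. Serpina1e gave 0.0841 and 0.108 in GC-1 against 0.0757 and 0.179 in GC-2 and changed by 0.29 ± 0.45 (adjusted p = 0.628). A second Serpina1e probe was above background in GC-1 alone and did not pass. Its mean GC-1 level, -5.86 log2, lay below the limits of detection of both GC-2 arrays, so it gives no direction. Serpina1f gave 0.0594 and 0.0487 in GC-1 against 0.0482 and 0.103 in GC-2 and changed by 0.39 ± 0.41 (adjusted p = 0.472). In both of these genes the GC-2 replicates lay on either side of GC-1. How close these copies are is seen in the second Serpina1a probe and the Serpina1c probe, which match at 50 of 51 aligned bases, with the difference in capitals.
Serpina1a: taaAatgtcatccttccttctgaattgggt
Serpina1c: taaGatgtcatccttccttctgaattgggt
These genes cannot be separated with certainty by such probes.

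Elsewhere in clade A, Serpina11 rose from 0.0856 and 0.133 in GC-1 to 0.201 and 0.224 in GC-2 (0.99 ± 0.30 log2, adjusted p = 0.0427). Serpina9, known from germinal centre B cells, gave 0.0647 and 0.0794 in GC-1 against 0.259 and 0.0784 in GC-2, with GC-2 replicate 1 alone standing out. Its change of 0.99 ± 0.57 did not pass (adjusted p = 0.209), but did without GC-2 replicate 2, at 1.85 (adjusted p = 0.0155). Serpina10, the inhibitor that works with protein Z on coagulation factor X, gave 0.0423 and 0.0313 in GC-1 against 0.0403 and 0.0480 in GC-2 and changed by 0.27 ± 0.27 (adjusted p = 0.446). That probe lists no transcript of the RefSeq table. The other Serpina10 probe, which does list one, was above background on no array. In all, clade A had 16 tested genes of 26, with 4 higher, 3 lower and a median of 0.28.

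The 4 rises of clade A, in Serpina1a, Serpina1b, Serpina3j and Serpina11, lay near the threshold. Serpina1a and Serpina3j lost the call without any 1 of the 4 arrays, with adjusted p 0.0544 to 0.194 and 0.0543 to 0.195. Serpina1b lost it without GC-1 replicate 1, GC-1 replicate 2 or GC-2 replicate 2 (0.118 to 0.176), and Serpina11 without GC-1 replicate 1, GC-2 replicate 1 or GC-2 replicate 2 (0.0932 to 0.150). With scaling to E1A the 4 changes read from -1.19 to -1.08 log2.

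Clade B was divided between strong rises in some of the Serpinb1 and Serpinb9 copies and Serpinb6 genes that fell or did not pass. Serpinb1a, an inhibitor of neutrophil elastase and cathepsin G, had its probe at chr13:32934693-32934752 (mm9) and gave 0.466 and 0.699 in the GC-1 replicates against 25.3 and 21.7 in the GC-2 replicates. Its rise was 5.36 ± 0.29 log2, or 41.1-fold (adjusted p = 0.000263). Serpinb1c gave 0.0312 and 0.0395 in GC-1 against 1.47 and 1.54 in GC-2 and rose by 5.42 ± 0.25, or 42.9-fold (adjusted p = 0.000181). In each of these genes the lines were far apart. The third copy, Serpinb1b, gave 0.0654 and 0.0986 in GC-1 against 0.110 and 0.0553 in GC-2, with overlapping lines and a change of -0.04 ± 0.42 (adjusted p = 0.943). The other Serpinb1c probe was above background on 1 GC-2 array and was not tested.

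The Serpinb9 copies are related to the granzyme B inhibitor Serpinb9, which protects lymphocytes from their own granules. Serpinb9 itself gave 6.58 and 7.41 in the GC-1 replicates against 8.86 and 7.78 in the GC-2 replicates. The ranges did not overlap, but the change was 0.25 ± 0.24 log2 and did not pass (adjusted p = 0.427). By contrast, 3 neighbouring copies were higher in GC-2. Serpinb9e gave 0.0265 and 0.0205 in GC-1 against 0.158 and 0.225 in GC-2 and rose by 3.02 ± 0.29, or 8.10-fold (adjusted p = 0.00126). Serpinb9f gave 0.0293 and 0.0151 in GC-1 against 0.145 and 0.278 in GC-2 and rose by 3.25 ± 0.46 (adjusted p = 0.00391). Serpinb9g gave 0.0169 and 0.0140 in GC-1 against 0.0892 and 0.134 in GC-2 and rose by 2.83 ± 0.30 (adjusted p = 0.00154). In each of these copies every GC-2 array lay above every GC-1 array. Serpinb9f and Serpinb9g were each above background on 1 of 2 GC-1 arrays. With scaling to E1A, Serpinb9g was still higher, at 0.76 log2, but did not pass (adjusted p = 0.0603). Serpinb9c gave 0.0218 and 0.0349 in GC-1 against 0.0241 and 0.0257 in GC-2 and changed by -0.15 ± 0.30 (adjusted p = 0.712).

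The 3 values of Serpinb9e, Serpinb9f and Serpinb9g were not shown to be independent. The Serpinb9f probe also lists a Serpinb9e transcript. The probes of Serpinb9f and Serpinb9g match at 52 of 59 aligned bases, and the window of 30 bases with most of the differences, in capitals, shows where they part.
Serpinb9f: atttctatctgttttcaatatAtTtaCAtA
Serpinb9g: atttctatctgttttcaatatGtAtaAGtG

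The sequences before the start sites of these copies are also alike. RefSeq windows (GRCm38.p6) were at hand for 53 of the 64 serpin genes. Over the 250 bases before the start, Serpinb9e was identical to Serpinb9g at 94.4% and to Serpinb9f at 93.2% of positions. Serpinb9d, which was above background on 1 GC-2 array only, was identical to Serpinb9e at 90.0%. Serpinb9 and Serpinb9c, which did not pass, matched Serpinb9e at 49.2% and 66.8%, with 1 of 2 windows of Serpinb9c compared. The last 120 bases of Serpinb9d, Serpinb9e, Serpinb9f and Serpinb9g are given 5′ to 3′ on the plus strand because they set an untested copy beside 3 that rose. The Serpinb9d probe above background on 1 GC-2 array gave 0.00309 and 0.00579 in GC-1 against 0.0180 and 0.0448 in GC-2. The other, above background on no array, gave 0.00289 and 0.00837 in GC-1 against 0.00749 and 0.0314 in GC-2. Serpinb9d was thus not shown to differ from the 3 copies. The motif TGACG, 1 of several searched on both strands, is in capitals.
Serpinb9d, chr13:33192835-33192954: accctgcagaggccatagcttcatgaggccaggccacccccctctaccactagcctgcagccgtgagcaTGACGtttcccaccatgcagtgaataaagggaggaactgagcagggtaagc
Serpinb9e, chr13:33249488-33249607: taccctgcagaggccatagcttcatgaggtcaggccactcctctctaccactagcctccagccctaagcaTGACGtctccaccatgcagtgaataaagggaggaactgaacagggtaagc
Serpinb9f, chr13:33323957-33324076: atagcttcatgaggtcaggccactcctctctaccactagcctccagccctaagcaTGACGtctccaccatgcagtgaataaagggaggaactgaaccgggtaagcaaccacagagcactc
Serpinb9g, chr13:33484670-33484789: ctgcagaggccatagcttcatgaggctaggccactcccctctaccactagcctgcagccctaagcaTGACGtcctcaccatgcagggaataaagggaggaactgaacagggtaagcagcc
All 4 windows held TGACG, as did 1 of 2 windows of Serpinb9c, which did not pass, and 17.8% of 32851 windows of 250 bases in the RefSeq table. Windows so alike are not independent counts, and the match is a description of letters, not a site.

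The Serpinb6 genes, inhibitors of cathepsin G and other proteases inside the cell, held 2 falls among 5 tested genes. Serpinb6a, at chr13:34009796-34009855, gave 139 and 97.8 in the GC-1 replicates against 136 and 158 in the GC-2 replicates, with a change of 0.34 ± 0.28 log2 that did not pass (adjusted p = 0.367). Serpinb6c gave 109.8 and 90.3 in GC-1 against 113 and 132 in GC-2, with a change of 0.29 ± 0.25 (adjusted p = 0.380). These probes match at 39 of 42 aligned bases and are shown because their sequences are so close that the genes cannot be separated with certainty, with the differences in capitals.
Serpinb6a: agtgaccttatccataagtgcaatgGcaAT
Serpinb6c: agtgaccttatccataagtgcaatgAcaGC
The other Serpinb6c probe gave 1.81 and 2.05 in GC-1 against 1.81 and 1.75 in GC-2 and changed by -0.12 ± 0.23 (adjusted p = 0.709). Of the other Serpinb6a probes, the one at chr13:34010675-34010734 gave 12.9 and 11.1 in GC-1 against 25.2 and 28.5 in GC-2 and rose by 1.16 ± 0.24 (adjusted p = 0.0126). The one at chr13:34015839-34015898 gave 0.0108 and 0.0299 in GC-1 against 0.0461 and 0.0772 in GC-2 and rose by 1.73 ± 0.54 (adjusted p = 0.0480), and the one at chr13:34078371-34078430 was above background in GC-1 alone and did not pass. Probes of Serpinb6a thus did not share a call.

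Serpinb6b gave 22.0 and 30.01 in GC-1 against 11.2 and 6.16 in GC-2 and fell by 1.63 ± 0.37 log2 in GC-2, or 3.10-fold (adjusted p = 0.0170). Serpinb6d gave 0.601 and 0.692 in GC-1 against 0.290 and 0.369 in GC-2 and fell by 0.98 ± 0.26 (adjusted p = 0.0270). In both genes each GC-2 array lay below each GC-1 array. The Serpinb6b call was lost without GC-1 replicate 1, GC-1 replicate 2 or GC-2 replicate 2 (0.0580 to 0.0963), and the Serpinb6d call without GC-1 replicate 1, GC-1 replicate 2 or GC-2 replicate 1 (0.0755 to 0.107). Serpinb6e gave 0.263 and 0.193 in GC-1 against 0.254 and 0.267 in GC-2 and changed by 0.21 ± 0.26 (adjusted p = 0.552).

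On chromosome 1, Serpinb5 and Serpinb7 differed in opposite directions, and each was measured in a single line. Serpinb5, or maspin, is an epithelial serpin that does not act as a classical inhibitor. It gave 0.0675 and 0.0749 in GC-1 against 0.00418 and 0.00783 in GC-2 at chr1:108778585-108778644, with no GC-2 array above background. This puts GC-1 higher by at least 2.51-fold (adjusted p = 0.00127 for the fitted change). With normexp the fitted change was 0.21 log2 (adjusted p = 0.633). The epithelial keratins Krt8, Krt18 and Krt19 moved the same way as Serpinb5, and their part in it was not tested. The epithelial markers Epcam, above background on 1 GC-1 array, and Cdh1, on 1 GC-2 array, were too dim to test.

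Serpinb7, or megsin, known from mesangial cells and skin, gave 0.00311 and 0.00358 in GC-1 against 0.0314 and 0.0423 in GC-2 at chr1:109349063-109349122, with no GC-1 array above background. GC-2 was higher by at least 2.42-fold (adjusted p = 0.000640 for the fitted change). Its signal in GC-2 lay close to the limit of detection.

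The other chromosome 1 genes did not pass on their brightest probe. Serpinb8, an inhibitor of furin, gave 31.9 and 22.2 in GC-1 against 22.0 and 18.7 in GC-2 and changed by -0.39 ± 0.28 (adjusted p = 0.304). Its other probe gave 0.381 and 0.343 in GC-1 against 0.0888 and 0.170 in GC-2 and fell by 1.56 log2 (adjusted p = 0.0193). Serpinb2, or plasminogen activator inhibitor 2, gave 0.152 and 0.159 in GC-1 against 0.122 and 0.528 in GC-2, with GC-2 replicate 2 alone standing out. Its change was 0.70 ± 0.68 (adjusted p = 0.433), and 1.76 without GC-2 replicate 1 (adjusted p = 0.0139) but -0.36 without GC-2 replicate 2. Serpinb3c, a relative of the squamous cell carcinoma antigens, gave 0.0432 and 0.0664 in GC-1 against 0.0221 and 0.0912 in GC-2, on either side of GC-1, and changed by -0.25 ± 0.68 (adjusted p = 0.784). Serpinb11 and Serpinb12, above background on no GC-2 array, gave 0.0211 and 0.0214 in GC-1 against 0.0151 and 0.0298 in GC-2, and 0.0176 and 0.0230 in GC-1 against 0.0136 and 0.0297 in GC-2. Their mean GC-1 levels lay below the mean of the GC-2 limits of detection, though Serpinb11 lay just above the limit of GC-2 replicate 1. No direction or size can be given. Clade B thus had 20 tested genes of 27, with 6 higher, 3 lower and a median of 0.23.

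Laid out along the chromosomes, the calls are described by position, and no test of their placement was run. Over all genes tested, 44.1% were called. The chromosome 12 cluster held 25 genes over 798.7 kb of probe positions (mm9), and 16 were tested, with 4 higher and 3 lower. Its 3 falls, Serpina3g, Serpina3f and Serpina3i, had probes between 626.8 and 651.5 kb from the first. The Serpina3f probe stands at the Serpina3h probe, within 1 kb, and lists a Serpina3h transcript, while the other Serpina3f probe lies before Serpina3g. Its place on the map is that of the probe, and its fall cannot be set apart from Serpina3h. The chromosome 13 cluster held 15 genes over 1075.2 kb, with 13 tested, 5 higher and 2 lower. Serpinb1a and Serpinb1c lay within 41.5 kb of each other at its start, and Serpinb9e, Serpinb9f and Serpinb9g between 417.7 and 653.0 kb, with Serpinb6b, Serpinb9, Serpinb9b, Serpinb1b, Serpinb9c and Serpinb9d between them. The chromosome 1 cluster held 12 genes over 726.3 kb, with 7 tested, 1 higher and 1 lower. Tandem copies that share sequence are not independent counts.

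**Figure D3:**
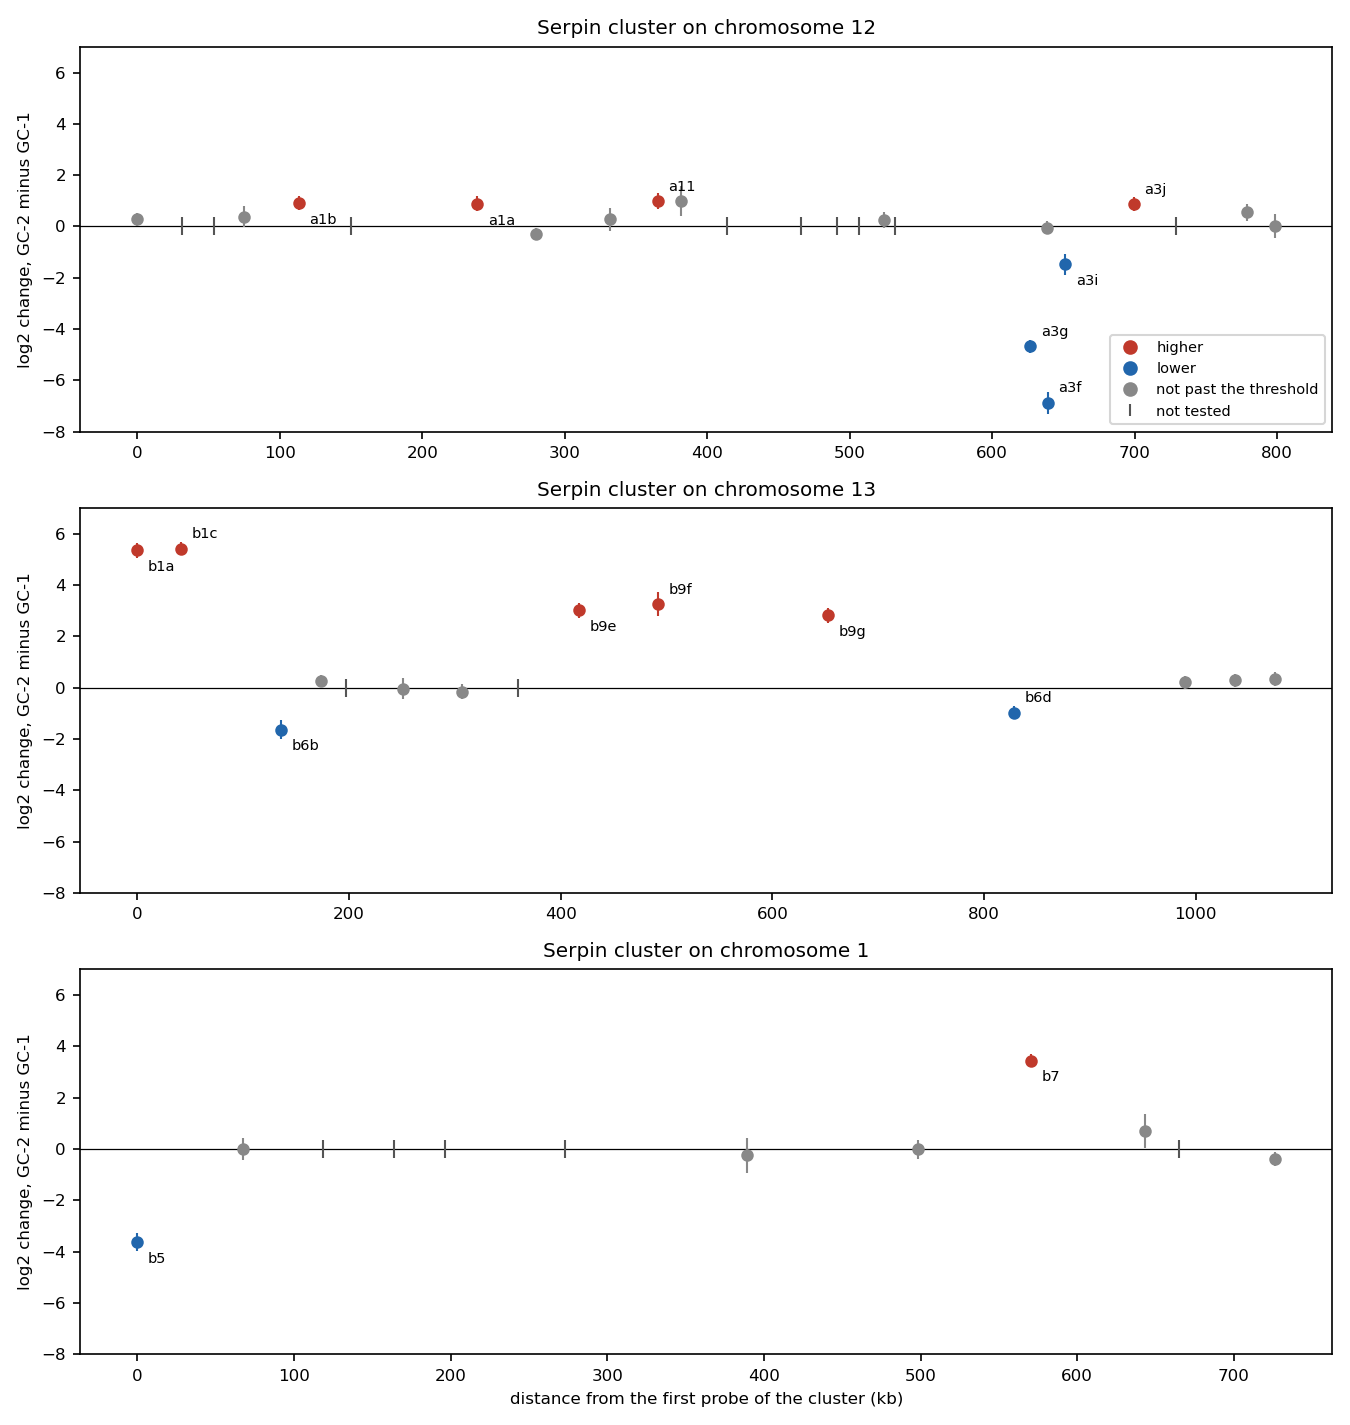
Change of the serpin genes of the clusters on chromosomes 12, 13 and 1, GC-2 minus GC-1 in log2 units (y axis) with standard errors (bars), against the distance in kb from the first probe (x axis). Red is higher and blue lower at an adjusted p under 0.05, grey did not pass and ticks at 0 were not tested. The probes of the falls on chromosome 12 lie together, that of Serpina3f at the Serpina3h probe, and the rises on chromosome 13 lie in 2 places.

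Probes of the same gene were a source of uncertainty for part of the family. Of 18 serpin genes with several probes, 12 had several tested probes. Calls were opposite only for Serpinh1. They differed without being opposite for Serpina1a, Serpinb6a, Serpinb8, Serpinc1 and Serpini1, where at least 1 probe passed and at least 1 did not. The other 6 shared the call over their tested probes. Over probes, 20 of 59 tested were higher and 9 lower in GC-2, against 24.1% and 21.6% of all 36692 tested probes, or 45.7% in either direction.

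**Figure D4:**
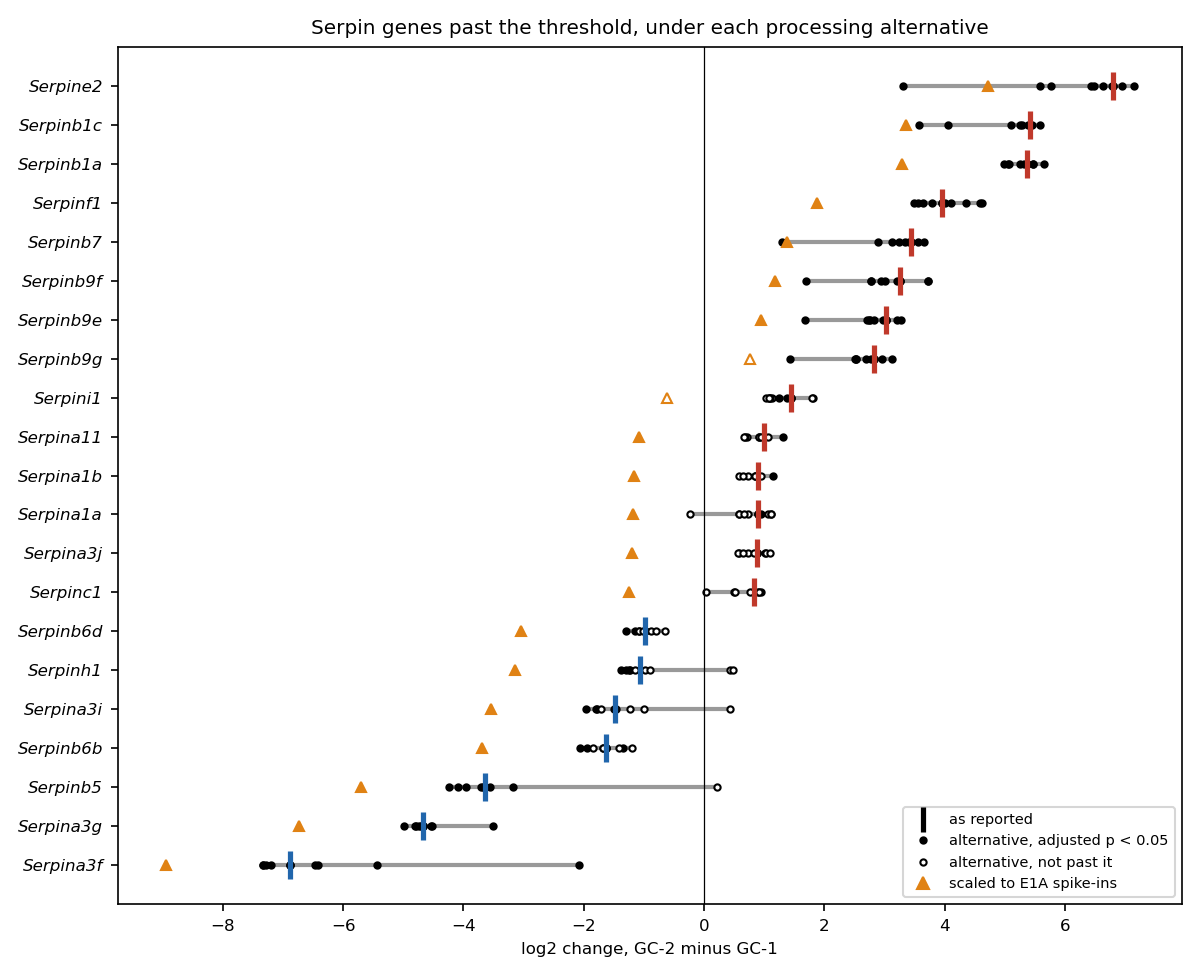
Change of the 21 serpin genes past the threshold, GC-2 minus GC-1 in log2 units (x axis), as reported (vertical marks) and under each processing alternative (dots, with a grey line over their range; filled where the adjusted p was under 0.05, open where not). Orange triangles are the scaling to E1A spike-ins, which lies 2.07 log2 to the left. Rises of 1.44 and below turned negative there, Serpinh1 crossed 0 with the mean of probes (as did Serpina1a, whose second probe was not above background in GC-2), and Serpinb5 at 0.21 and Serpina3i at 0.42 crossed 0 under normexp.

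The proteases, receptors and clients of serpins were examined by role. Of 76 such genes with a probe, 58 were tested, 12 were higher and 11 lower in GC-2, and 35 did not pass, with a median change of 0.29. Of all genes, 44.1% were called. Up to 3 genes per role with the largest changes past the threshold are given first, and the few other calls, which fall outside that rule, were named after their values were seen.

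In plasminogen activation, the system that Serpine2 and Serpinf2 restrain, 1 of 7 tested genes was lower and none higher with limma, and at an unadjusted p under 0.05 the counts were 2 and 0. Plaur, the urokinase receptor, gave 21.5 and 24.1 in GC-1 against 4.55 and 6.43 in GC-2 and fell by 2.07 ± 0.27 log2 (adjusted p = 0.00313). The activators themselves did not pass. Plau gave 0.958 and 0.377 in GC-1 against 0.458 and 0.298 in GC-2 with a change of -0.70 ± 0.50 (adjusted p = 0.297), and Plat gave 2.86 and 1.98 in GC-1 against 3.30 and 2.38 in GC-2 with a change of 0.23 ± 0.31 (adjusted p = 0.568).

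Of the clearance receptors, which take up serpin complexes, Lrp2 fell and Lrp8 and Lrp1 rose. Lrp2, or megalin, gave 1.88 and 1.88 in GC-1 against 0.293 and 0.207 in GC-2 and fell by 2.93 ± 0.27 (adjusted p = 0.00106). Lrp8 gave 0.259 and 0.202 in GC-1 against 0.834 and 0.928 in GC-2 and rose by 1.94 ± 0.25 (adjusted p = 0.00300). Of the tested probes, 3 of 5 passed for Lrp2 but only 1 of 4 for Lrp8. Lrp1, the receptor best known for taking up complexes of proteases with serpins, rose by 1.39 ± 0.23 (adjusted p = 0.00605). Of its 3 tested probes, 2 passed. With scaling to E1A the changes of Lrp8 and Lrp1 read -0.12 and -0.68. In the authors' table none of the 3 genes passed, with adjusted p from 0.135 to 0.365.

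Among 8 tested coagulation and contact genes, 2 were higher and 2 lower. Tfpi, the tissue factor pathway inhibitor, gave 0.0511 and 0.0291 in GC-1 against 5.09 and 5.02 in GC-2 and rose by 7.03 ± 0.33 (adjusted p = 0.000189). Thbd, or thrombomodulin, gave 0.182 and 0.172 in GC-1 against 1.57 and 1.00 in GC-2 and rose by 2.82 ± 0.30 (adjusted p = 0.00159). In both genes each GC-2 array lay above each GC-1 array, and 77.9% of all genes tested likewise had no overlap between the lines. Procr, the protein C receptor, gave 50.1 and 43.0 in GC-1 against 5.51 and 4.31 in GC-2 and fell by 3.25 ± 0.26 (adjusted p = 0.000687). F2, which encodes prothrombin, was above background in GC-1 alone and at least 1.44-fold higher there (adjusted p = 0.00935 for the fitted change). With normexp, however, the fitted change was 0.58 (adjusted p = 0.173).

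The complement proteases, targets of Serping1, held 3 rises and 1 fall among 6. Masp1 gave 0.616 and 0.782 in GC-1 against 21.4 and 15.2 in GC-2 and rose by 4.70 ± 0.29 (adjusted p = 0.000338), and C1rb gave 0.296 and 0.328 in GC-1 against 1.90 and 1.40 in GC-2 and rose by 2.39 ± 0.26 (adjusted p = 0.00180). These are proteases of the lectin and classical pathways, and the lines did not overlap in either, as in 77.9% of all genes tested. Masp2 gave 0.341 and 0.370 in GC-1 against 0.0182 and 0.00955 in GC-2, above background in GC-1 alone. It was at least 12.5-fold higher there (adjusted p = 0.000612 for the fitted change). C1s1, listed under its older name C1s, rose by 1.54 ± 0.38 (adjusted p = 0.0229), with 2 of 3 tested probes past the threshold. With scaling to E1A it read -0.53, where C1rb at 0.32 and the coagulation gene Thbd at 0.75 did not pass either. The C1s1 call was lost without GC-1 replicate 1, GC-1 replicate 2 or GC-2 replicate 1, at adjusted p from 0.0607 to 0.123.

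Of the 7 tested lysosomal cathepsins, 1 was higher and 2 lower. Ctsc gave 1.38 and 2.09 in GC-1 against 0.368 and 0.505 in GC-2 and fell by 1.98 ± 0.32 (adjusted p = 0.00577). Ctsl gave 235 and 195 in GC-1 against 77.3 and 57.8 in GC-2 and fell by 1.68 ± 0.27 (adjusted p = 0.00577), though its 2 probes passed in opposite directions. Ctsd gave 44.6 and 37.6 in GC-1 against 103 and 100.4 in GC-2 and rose by 1.31 ± 0.24 (adjusted p = 0.00828), and read -0.76 with scaling to E1A. In the authors' table the change of Ctsc was -0.61 (adjusted p = 0.148). All 3 genes had no overlap between the lines, as had 77.9% of all genes tested. No granzyme or neutrophil protease passed of 5 tested with limma, and none had an unadjusted p under 0.05, while 6 of 12 were above background on no array. Of 4 membrane and secreted proteases, only the secreted protease Htra1 passed, with a fall of 0.77 ± 0.24 (adjusted p = 0.0475) on 1 of its 2 tested probes. At an unadjusted p under 0.05, 1 was higher and 1 lower. The Htra1 call was lost without any 1 of the 4 arrays (0.0916 to 0.163 adjusted) and with the replicate number as a block (adjusted p = 0.0635).

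For collagen folding, the work of Serpinh1, all 15 genes were tested, 4 were higher and 2 lower. Col1a1, a chain of type I collagen, gave 129.6 and 136 in GC-1 against 50.1 and 30.95 in GC-2 and fell by 1.75 ± 0.31 (adjusted p = 0.00753). The prolyl hydroxylase P3h1 gave 0.675 and 0.520 in GC-1 against 1.68 and 1.79 in GC-2 and rose by 1.55 ± 0.25 (adjusted p = 0.00601). The lysyl hydroxylase Plod3 gave 5.68 and 6.17 in GC-1 against 16.7 and 16.8 in GC-2 and rose by 1.499 ± 0.23 (adjusted p = 0.00478). On the brightest probes of these 3 genes the lines did not overlap, as in 77.9% of all genes tested. Of the tested probes, 2 of 4 passed for Col1a1, 1 of 2 for P3h1 and 2 of 2 for Plod3. Plod1 and Mia3 rose by 1.41 ± 0.24 and 0.97 ± 0.23 (adjusted p = 0.00648 and 0.0212), and P4ha2 fell by 1.15 ± 0.33 (adjusted p = 0.0363) with its 2 probes past the threshold in opposite directions. Leaving out any 1 of the 4 arrays ended the Mia3 call (0.0543 to 0.0844 adjusted), and leaving out any but GC-1 replicate 2 ended that of P4ha2 (0.0998 to 0.115). With scaling to E1A the 4 rises of this list read from -1.10 to -0.52.

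**Figure D5:**
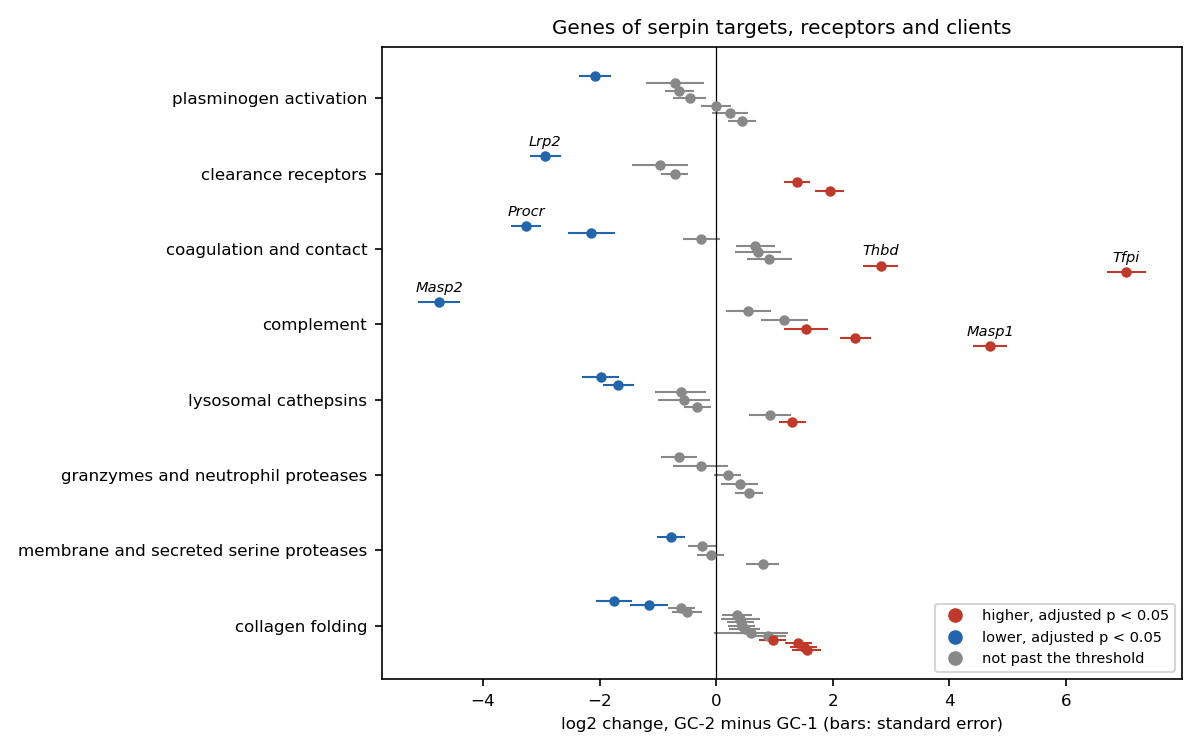
Change of the tested genes of serpin targets, receptors and clients, GC-2 minus GC-1 in log2 units (x axis) with standard errors (bars), by role. Red is higher and blue lower at an adjusted p under 0.05, and grey did not pass. The widest spread is in the coagulation and complement genes, from Masp2 at -4.75 to Tfpi at 7.03.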

How the data were processed

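Total RNA of GC-1 and GC-2 cells was labelled with Cy3 and hybridised to 4 arrays. Per the file headers, Agilent Feature Extraction 11.5.1.1 turned each spot into a processed intensity, corrected for background and not normalized between arrays. The authors also deposited log2 values, 1 per gene name, used here as an alternative. Control spots and 92 to 224 irregular spots per array were left out, spots were averaged per probe, and log2 values were taken relative to the array's 75th percentile. Probes well above background in both replicates of a line, with a value on all arrays, were tested (36692; 21 others lacked a value) with limma 3.58.1 in R 4.3.3, two-sided, adjusted by Benjamini-Hochberg over all tested probes, at a threshold of 0.05. A gene took its tested probe with the highest mean. No spot was saturated.

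Where a line had no array above background, its level was set to the higher of the detection limit and its own signal, which gives the "at least" folds. A probe can exceed that limit without being flagged as above background, so these folds are approximate bounds. An adjusted p beside such a fold is that of the fitted change, which uses the values not above background, and does not test the bound. Replicate numbers come from the titles. Deviations of same-numbered arrays correlated at 0.12, over 2 pairs, so numbers were not taken as pairing. On simulated data of 36692 probes, the test found 95% of 4-fold and 68% of 2-fold changes, and 2.36% of its calls were on unchanged probes. There the called probes kept their observed changes, and noise was drawn independently from the fitted spread. Errors of scaling, array or culture were not simulated, so these shares do not cover them. Members, lists, tests and alternatives were chosen with earlier results of these data known, and the alternatives for the targets and receptors after the data were seen. All serpin genes well above background in both replicates of a line were named, and of targets and receptors up to 3 per role with the largest changes past the threshold. Probe positions are on mm9, and exon or UTR annotation of that build was not used here. Names came from the RefSeq table of GRCm38.p6 by accession (32994 probes), symbol (10224) or synonym (520), and 12867 kept the file's name. The values of 1 serpin gene and 1 receptor are not reported here and not plotted, though counts over the lists include them.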

Additional observations from a re-analysis of the deposited data

How the results depend on the processing

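Of the serpin counts, 14 higher and 7 lower as reported, the higher count was 9 with quantile normalization, 8 with median centring, 9 with no filter on dim probes and 8 in the authors' table. The lower count was 4 with normexp, 4 with no filter on dim probes and 4 in the authors' table. Leaving out 1 array gave 8 to 10 higher and 3 to 5 lower serpin genes, and 10683 to 13569 probes in all against 16780. Of the targets and receptors 17 to 30 passed under every alternative run other than E1A scaling. With scaling to E1A, 7 serpin genes were higher and 34 lower, 48 targets and receptors passed against 23, and 31587 probes passed. That scaling lowered the median of all genes tested from -0.13 to -2.19, and median centring lowered it to -0.44. The replicate block gave 14 higher and 8 lower, adding Serpinf2, and changed no other serpin call.

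Directions turned under E1A scaling for Serpina10 (-1.79), Serpina11 (-1.08), Serpina1a (-1.18), Serpina1b (-1.17), Serpina1e (-1.78), Serpina1f (-1.68), Serpina3b (-1.81), Serpina3j (-1.19), Serpina3m (-1.52) and Serpina3n (-2.04), and Serpina9 read -1.08. In clade B they turned for Serpinb12 (-2.06, not above background in GC-2), Serpinb2 (-1.37), Serpinb6a (-1.73), Serpinb6c (-1.78), Serpinb6e (-1.86) and Serpinb9 (-1.82), and elsewhere for Serpinc1 (-1.24), Serping1 (-1.79) and Serpini1 (-0.62). By construction this scaling subtracts the same amount from every change. With normexp, Serpinb5 read 0.21 and Serpina3i 0.42. With the mean of probes Serpinh1 read 0.47, and Serpina1a read -0.23, which is no direction because its second probe was not above background in GC-2, and in the authors' table Serpinh1 read 0.43. With normexp the fitted changes of Serpina3f and Serpinb7 were smaller, at -2.08 and 1.30, and Serpina9 passed, at 1.14. The causes were not tested. With 2 arrays per line, and a higher detection limit in GC-2, small changes of genes near background could not be resolved.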
